A study of Mus musculus with 4 samples.

Results

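Peaks of the transcription factor Foxo1 were examined at the loci of 9 effector cytokines and of Tbx21 in mouse regulatory T cells. The members were all deposited peaks whose centre lay in 1 of 5 windows of build mm9: Il22-Ifng (chromosome 10, 117580000 to 118000000), Il4-Il13-Il5 (chromosome 11, 53380000 to 53600000), Il2-Il21 (chromosome 3, 36950000 to 37180000), Il17a-Il17f (chromosome 1, 20670000 to 20820000) and Tbx21 (chromosome 11, 96900000 to 97030000). Of 77652 entries in 3 lists, 47 met this rule: 11 of 16473 antibody peaks, 30 of 57748 streptavidin peaks and 6 of 3431 intervals of a list named for both methods, called the joint list here. The study mapped Foxo1 by ChIP-seq, the sequencing of DNA precipitated with a protein, in cells labelled nTreg. The antibody library came from wild-type B6 mice and used an antibody against Foxo1. The streptavidin library came from Foxo1tagBirA mice, whose endogenous Foxo1 carries biotin that streptavidin binds. Each method had 1 library, an input library belonged to each, and the ages of the mice and the number pooled are not given in the sources used here. The lists hold no reads, so depth is unknown and there is no replicate error. Intervals given below are exact 95% binomial intervals that cover counting error over peaks only. Peak lists hold no expression values, so the cells' identity was not checked against markers.

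Foxo1 is a forkhead factor that PI3K and Akt signalling keeps in the cytoplasm and that enters the nucleus once this signalling is low. Regulatory T cells restrain other T cells and normally make little of the cytokines by which effector T cells act. Among those cytokines, Ifng is the signature product of type 1 helper cells and Tbx21 encodes T-bet, the factor that directs their fate. Il4, Il5 and Il13 belong to type 2 helper cells, Il17a and Il17f to Th17 cells, and Il22 acts on epithelial barriers. Il2 is the T cell growth factor that regulatory T cells take up rather than produce, and Il21 is made by follicular helper cells.

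No peak sequence is shown, because the mm9 genome was not used here. As the nearest available sequence, the 250 bases before the transcription start of the 10 genes were searched in RefSeq promoters of build GRCm38.p6, where 11 promoters matched all 10 symbols, with 2 starts for Il4. These positions belong to another build and were not set against the peaks. None of the 11 promoters held GTAAACA or ATAAACA, preferred forkhead sites, on either strand, against 7.1% of all 32851 promoters. A search with the forkhead consensus in its 8 forms was added after the sequences were seen. These forms are NNAAANA with G or A as the first letter, T or C as the second and C or T as the sixth. Both strands were searched, and both sites above are among the forms. Of the 11 promoters 2 had a match, against 24.9% of all promoters. A match is a description of the letters and no site of binding. Ifng is printed because 3 regions of its window were in all 3 lists, and Il4 and Il21 because they held the matches, shown in capitals. The Ifng stretch is chr10:118440796-118441045 (plus strand), that of Il4 is chr11:53617339-53617588 (minus strand, the start further inside the gene), and that of Il21 is chr3:37232637-37232886 (minus strand), each written 5′ to 3′ along the gene.
Ifng: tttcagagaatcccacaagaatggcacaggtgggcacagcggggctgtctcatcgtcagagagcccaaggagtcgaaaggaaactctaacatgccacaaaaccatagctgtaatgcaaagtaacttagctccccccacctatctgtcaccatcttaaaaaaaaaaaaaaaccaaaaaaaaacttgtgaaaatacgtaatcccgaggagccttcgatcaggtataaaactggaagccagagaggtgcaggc
Il4: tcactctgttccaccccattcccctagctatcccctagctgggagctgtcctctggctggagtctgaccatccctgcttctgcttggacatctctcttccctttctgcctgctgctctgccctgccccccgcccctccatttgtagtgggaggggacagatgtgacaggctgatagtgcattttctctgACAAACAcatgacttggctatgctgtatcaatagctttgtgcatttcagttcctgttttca
Il21: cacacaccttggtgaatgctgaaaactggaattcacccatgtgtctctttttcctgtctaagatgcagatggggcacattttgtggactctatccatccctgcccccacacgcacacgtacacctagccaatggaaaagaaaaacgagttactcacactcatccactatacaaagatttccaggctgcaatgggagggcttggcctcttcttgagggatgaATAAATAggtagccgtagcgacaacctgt

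Peaks of both methods coincided in the Il22-Ifng and Il4-Il13-Il5 windows, at 3 regions each, and in none of the other 3 windows. A streptavidin peak overlapped 6 of the 11 antibody peaks, or 54.5% (23.4 to 83.3; 1 shared base was enough), against 21.9% of the whole antibody list. In the other direction 6 of the 30 streptavidin members were shared, which is 20% (7.71 to 38.6), against 6.2% of that list. Both intervals lay above the share of the whole list, the antibody one narrowly, and they treat peaks as independent, which neighbours are not. They did not lie above the shares in 2 flanks of each window's own length. There 25.0% of the antibody peaks and 21.3% of the streptavidin peaks were shared, each within the window interval of its list. With either window with shared regions left out, the intervals no longer lay above the shares of the whole lists. Without the Il22-Ifng window the shares were 37.5% (8.52 to 75.5) and 13.6% (2.91 to 34.9). Without the Il4-Il13-Il5 window 3 of 5 antibody peaks, or 60.0% (14.7 to 94.7), and 16.7% of the streptavidin peaks (3.58 to 41.4) were shared. All 4 intervals then included the whole list's share. The 60.0% was above the 54.5% of all windows, and its interval was wider with only 5 peaks left. With only scores of at least 100 in both lists, 27.3% of the antibody members were shared (6.02 to 61.0), against 11.5% of all antibody peaks at that score, a value within the interval. The streptavidin share was then 33.3% (7.49 to 70.1), against 16.1% of that list, also within the interval. The joint list held the same 6 regions and no other interval in the windows. No source used here says how that list was made, so it is not counted here as a separate measurement of these regions.

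**Figure D1:**
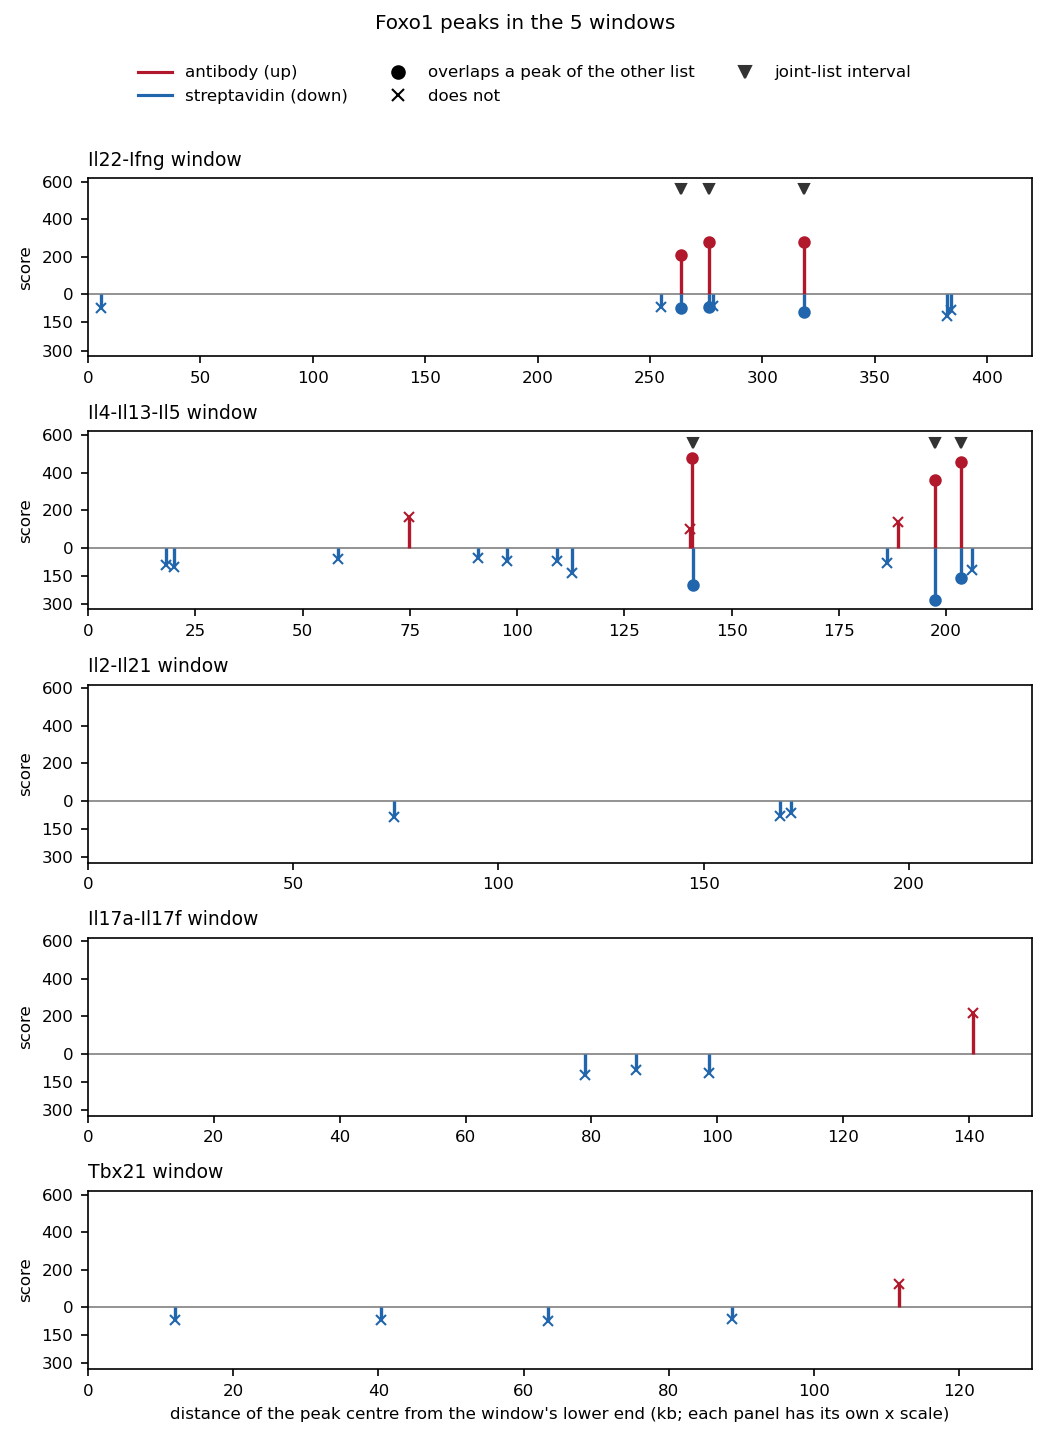
Each peak of the 5 windows by the distance of its centre from the window's lower end (kb) and its score, antibody upwards and streptavidin downwards; filled circles overlap a peak of the other list, crosses do not, and triangles mark joint-list intervals. Filled circles occur at 3 places in the Il22-Ifng window and at 3 in the Il4-Il13-Il5 window, and the Il2-Il21 window has no antibody peak.

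In the Il22-Ifng window all 3 antibody peaks were shared, and they lay within one stretch of the window. RefSeq places Il22, Iltifb and Ifng next to each other in this order, after Mdm1 and before Dyrk2. The first antibody peak, at chromosome 10, 117843960 to 117844089, scored 209.25, above 66.0% of the antibody list. It lay wholly within a streptavidin peak at 117843923 to 117844116 with a score of 73.18, and the centres were 5 bases apart. The score is the authors' peak caller's own value and ranks peaks within 1 list only.

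The second antibody peak followed 12.3 kb further on, at 117856133 to 117856516, with a score of 281.27, above 80.1% of the list. Its streptavidin partner at 117856031 to 117856254 scored 68.8, above only 33.2% of the streptavidin list, and overlapped it by 122 bases. The centres were 182 bases apart, the widest separation of the 6 pairs. With an overlap of 50% of each peak this pair no longer counted, and the share of antibody members became 45.5%, against 15.8% of the whole list under the same rule.

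The third antibody peak lay another 42.2 kb on, at 117898435 to 117898648, and scored 277.87, above 79.8% of the list. The streptavidin peak there, at 117898450 to 117898652, scored 93.99, above 77.0% of its list, with centres 9.5 bases apart. The 3 regions thus ranked in the upper part of the antibody list and from below to above the middle of the streptavidin list.

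Another 5 streptavidin peaks of the Il22-Ifng window overlapped no antibody peak. The highest of them, at 117962139 to 117962375, scored 114.07 and stood 1798 bases from a further one at 117963947 to 117964163 with a score of 84.9. Their nearest antibody centres were over 61 kb away (63125 and 61327 bases). The other 3 scored 64.08 to 73.34. One of these, at 117857941 to 117858139, had an antibody centre 1715.5 bases away, that of the second shared region.

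The Il4-Il13-Il5 window had the most peaks of the 5 in the antibody and streptavidin lists, 6 and 12, and its 3 shared regions ranked higher in both lists than those of the Il22-Ifng window. RefSeq gives the gene order Kif3a, Il4, Il13, Rad50, Il5, Irf1 here. Rad50 encodes a DNA repair protein whose gene holds a control region of the Th2 cytokines, and Irf1 encodes an interferon-induced transcription factor. All 3 shared regions lay in the upper part of the window, 140.8, 197.4 and 203.4 kb from its lower end. Which gene each lies in or nearest to was not determined without an mm9 annotation, so none is assigned to a cytokine gene rather than to a neighbour. Rad50 lies between Il13 and Il5, and the window may also hold other neighbours of the cytokine genes, such as Irf1.

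The highest-scoring antibody member of all windows, 479.59, lay at chromosome 11, 53520689 to 53520990. It ranked above 91.9% of the antibody list and wholly enclosed a streptavidin peak at 53520806 to 53520976 with a score of 197.4, above 98.7% of that list. A weaker antibody peak with a score of 100.8 stood beside it at 53520235 to 53520436, its centre 504 bases away, and overlapped no streptavidin peak.

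The second shared region of this window paired an antibody peak at 53577170 to 53577660, scoring 361.89, with a streptavidin peak at 53577395 to 53577656. That streptavidin peak had the highest score of its list within the windows, 278.21, and ranked 326th among 57748. The third region followed 6.0 kb on, with an antibody peak at 53583219 to 53583614 (score 454.58) and a streptavidin peak at 53583273 to 53583680 (score 162.51). All 3 streptavidin partners in this window stood above 97.6% or more of their list, whereas the 3 of the Il22-Ifng window stood above 33.2 to 77.0%. These 6 peaks come from 1 library, so the difference between the windows has no replicate check.

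Unshared antibody peaks of the Il4-Il13-Il5 window were weaker. Besides the one at 100.8 they were at 53454829 to 53455025 (score 161.64) and 53568695 to 53568951 (138.05), with nearest streptavidin centres 16109.5 and 2655.5 bases away. Of its 12 streptavidin peaks 9 were unshared, with scores from 54.79 to 134.52. The highest of these lay at 53492720 to 53492986, 27482.5 bases from an antibody centre, and the next, scoring 118.41, at 53585908 to 53586272, beside the third shared region. The shared peaks had the 3 highest scores of the window in each list.

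**Figure D2:**
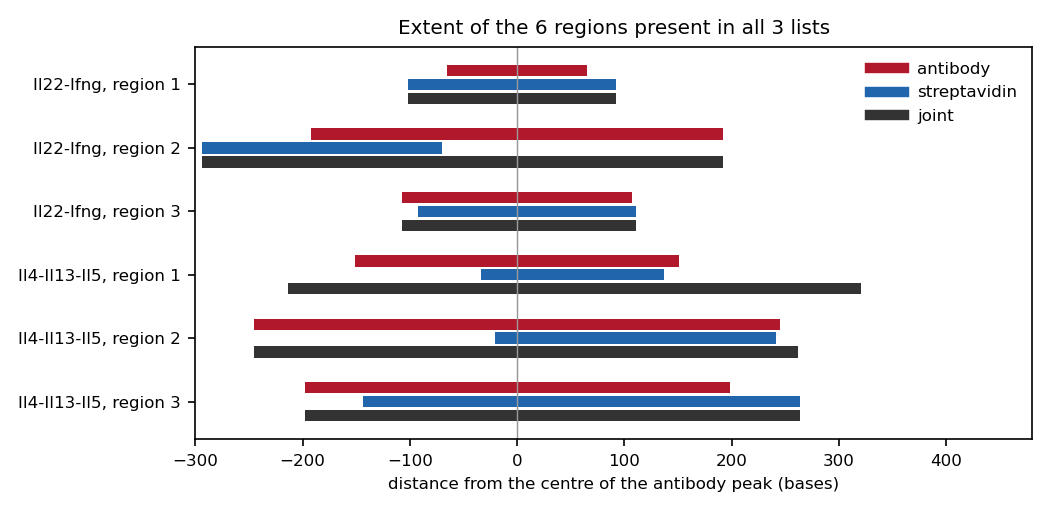
Extent in bases of the antibody peak, the streptavidin peak and the joint-list interval at the 6 regions found in all 3 lists, relative to the centre of the antibody peak. The streptavidin peak of region 2 at Il22-Ifng is displaced to one side (centres 182 bases apart), and the joint interval of region 1 at Il4-Il13-Il5 is longer than both peaks.

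Over the 6 pairs the centres were 5 to 182 bases apart, with a median of 55.75, against a median of 58 for all shared antibody peaks. Of the 6 joint intervals 4 ran exactly from the outermost start to the outermost end of the pair, as at 117843923 to 117844116. The other 2 reached further. The interval at 53520626 to 53521160 extended 63 bases below and 170 bases above both peaks, and the one at 53577170 to 53577676 extended 16 bases above them.

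The Il2-Il21 window held no antibody peak and no joint interval. Of all 230 kb tiles of the autosomes, 43.7% had no antibody peak and 79.1% no joint interval, so the absence was common at this length. The nearest antibody peaks lay 188 kb below the window, with a score of 235.03, and 138 kb above it, with 419.98, and both overlapped a streptavidin peak. The 3 streptavidin peaks of the window were at chromosome 3, 37024505 to 37024770 (score 87.16), 37118572 to 37118813 (80.85) and 37121148 to 37121355 (66.68). The last and the one before it had centres 2559 bases apart, and the 3 peaks stood above 27.8 to 69.1% of their list. RefSeq lists Adad1, Il2, Il21 and Cetn4 in this order. A missing peak means that none passed the authors' threshold, and signal below it cannot be seen in these lists.

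The Il17a-Il17f window had 1 antibody peak and 3 streptavidin peaks that lay apart from it. The antibody peak, at chromosome 1, 20810508 to 20810734, scored 216.52, above 68.5% of the list, and was 9.38 kb from the upper end of the window. In RefSeq Mcm3, a replication gene, follows Il17f. The streptavidin peaks were at 20748866 to 20749102 (score 114.07), 20756909 to 20757078 (85.87) and 20768565 to 20768759 (103.05), above 67.6 to 89.1% of their list. The closest of them was 41959 bases from the antibody centre. Joint intervals are missing from 84.8% of 150 kb tiles, so their absence here was the usual case.

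The Tbx21 window likewise had separate peaks from each method. Its antibody peak, at chromosome 11, 97011643 to 97011787, scored 123.19, above only 23.5% of the list. The 4 streptavidin peaks scored 62.54 to 72.87 and stood above 19.1 to 44.9% of their list, all below its middle. The 3 highest lay at 96963191 to 96963400 (72.87), 96911883 to 96912214 (68.71) and 96940168 to 96940377 (66.28). None came nearer than 23064 bases to the antibody centre. Of 130 kb tiles, 86.4% had no joint interval. RefSeq lists Osbpl7, Tbx21 and Tbkbp1 side by side.

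**Figure D3:**
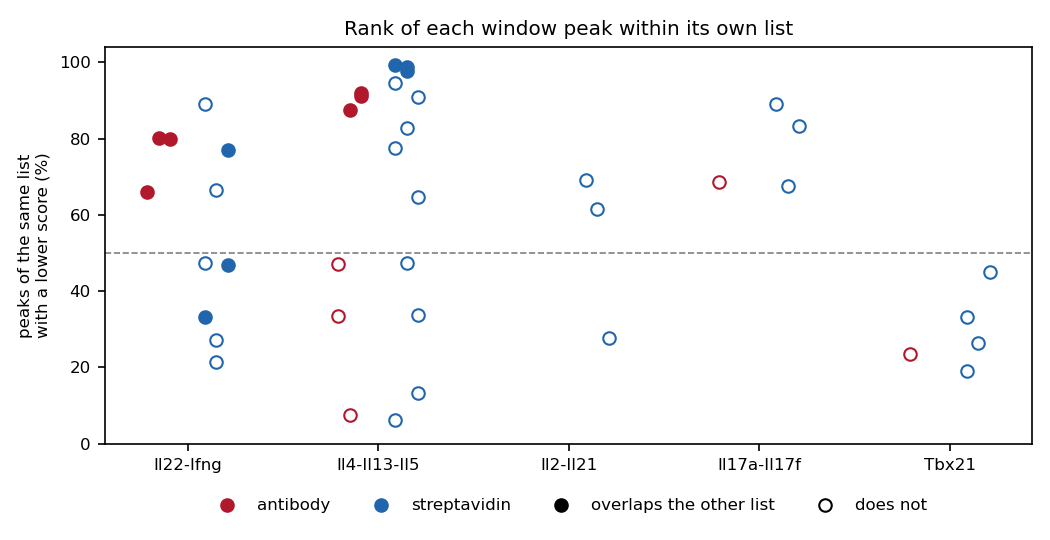
Percent of the same list with a lower score for each antibody and streptavidin peak, by window; filled symbols overlap a peak of the other list, and the dashed line marks the middle of the list. The shared peaks of the Il4-Il13-Il5 window stand at 87.5% or higher, and all peaks of the Tbx21 window lie below the line.

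As a group the members were not extreme within their lists. The antibody members scored 100.8 to 479.59 with a median of 216.5, against a list median of 167.4 and a list maximum of 3226. A total of 7 of 11 were above the list median, as were 50% of the list, and 2 of 11 were in its top 10% by score, against 9.99%. The streptavidin members scored 54.79 to 278.21 with a median of 81.97, against 74.74 for the list. There 16 of 30 were above the list median, against 49.9%, and 5 of 30 in the top 10%, against 9.67% of the list (less than 10% because of ties). All 5 were in the Il4-Il13-Il5 window, as were both top antibody members.

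The shared antibody peaks mostly had higher scores than the unshared ones. The 6 shared antibody peaks scored 209.25 to 479.59 (median 321.6) and the 5 unshared ones 100.8 to 216.52 (median 138.1), so that the ranges overlapped only between 209.25 and 216.52. In the whole list the medians were 252 and 157.6. Shared streptavidin members scored 68.8 to 278.21 (median 128.2) and unshared ones 54.79 to 134.52 (median 77.17), against medians of 97.97 and 74.02 in the whole list. This difference came from the Il4-Il13-Il5 window, where the shared peaks scored 162.51 or more and the unshared ones at most 134.52. In the Il22-Ifng window the medians were 73.18 for shared and 73.34 for unshared streptavidin peaks, and the highest peak, 114.07, was unshared. Widths were 130 to 491 bases in the antibody members (median 227, list 233) and 170 to 408 bases in the streptavidin members (median 210.5, list 221).

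Some members stood close to another peak of their own list, a property looked for after the positions had been seen. Of the 30 streptavidin members, 10 had a second streptavidin centre no more than 3 kb away, compared with 16.4% of all streptavidin peaks, and 2 of the 11 antibody members had a second antibody centre that near, compared with 22.9% of all antibody peaks. The streptavidin peaks formed 5 pairs, of which the Il22-Ifng and Il4-Il13-Il5 windows had 2 each and the Il2-Il21 window 1. In 1 pair of each of the first 2 windows a peak overlapped an antibody peak. The Il17a-Il17f and Tbx21 windows had no such pair.

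Counted per length, only the Il4-Il13-Il5 window stood well above the autosomal density in both the antibody and the streptavidin list. It had 27.3 antibody and 54.5 streptavidin peaks per Mb, against 6.77 and 23.7 on the autosomes outside the windows. Its own chromosome, 11, was denser than these autosomes, with 10.4 antibody and 28.1 streptavidin peaks and 2.42 joint intervals per Mb. At least 6 antibody peaks were found in 5.31% of all 220 kb tiles, at least 12 streptavidin peaks in 3.92% and at least 3 joint intervals in 2.53%. The Il22-Ifng window had 7.14 antibody and 19.0 streptavidin peaks per Mb. Of 420 kb tiles, 40.4% held as many antibody peaks, 65.2% as many streptavidin peaks and 6.89% at least 3 joint intervals.

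The remaining windows had ordinary counts. As many streptavidin peaks as the Il2-Il21 window were present in 78.1% of tiles of its length. For the Il17a-Il17f window 46.5% of tiles had at least its 1 antibody peak and 61.3% at least its 3 streptavidin peaks. For the Tbx21 window the shares were 43.0% and 38.4%.

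Over all 5 windows the antibody density was 9.57 per Mb, 1.41 times (0.705 to 2.53) that of the autosomes outside them. The streptavidin density was 26.1 per Mb, 1.1 times (0.742 to 1.57). Both intervals include 1. Like all ratio intervals in this paragraph, they treat peaks as independent, which neighbours are not, and may be too narrow. The 6 joint intervals made 5.22 per Mb, 3.71 times (1.36 to 8.08) the autosomal 1.41 per Mb, an interval above 1. They are the same 6 regions as the shared peaks, so this ratio adds no separate result. Against the flanks the joint ratio was 1.0 (0.308 to 2.88). The joint ratio to the autosomes was 2.92 (0.602 to 8.54) without the Il22-Ifng window and 2.29 (0.472 to 6.7) without the Il4-Il13-Il5 window. Both of these intervals include 1. Without the Il4-Il13-Il5 window the antibody and streptavidin ratios fell below 1, to 0.794 and 0.815.

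Beside the windows the antibody peaks were denser than in them. In 2 flanks of each window's own length, 48 antibody peaks were counted, 20.9 per Mb, so the windows had 0.458 times (0.215 to 0.895) the density of their flanks. The Il22-Ifng window, with 3 peaks, had 16 in its lower and 8 in its upper flank, and the Il2-Il21 window, with none, had 2 and 3. The Tbx21 window had 5 and 1 and the Il17a-Il17f window 1 and 2 in their flanks, each around 1 peak inside. In the Il4-Il13-Il5 window the 6 peaks inside compared with 5 on each side. Without the Il22-Ifng window and its flanks the ratio was 0.667 (0.259 to 1.53), without those of Il2-Il21 it was 0.512 (0.238 to 1.01), and both intervals include 1. Without the Il4-Il13-Il5 window it was 0.263 (0.0808 to 0.67). The intervals of all flank comparisons also treat neighbouring peaks as independent and may be too narrow.

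Streptavidin peaks showed no such difference, with 61 in the flanks, 26.5 per Mb, and a ratio of 0.984 (0.613 to 1.55). The difference between the ratios of the 2 methods was not tested. In the flanks 12 of 48 antibody peaks, or 25.0% (13.6 to 39.6), and 13 of 61 streptavidin peaks, or 21.3% (11.9 to 33.7), were shared. The flanks held 12 joint intervals, the same 5.22 per Mb as the windows, a ratio of 1.0 (0.308 to 2.88).

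**Figure D4:**
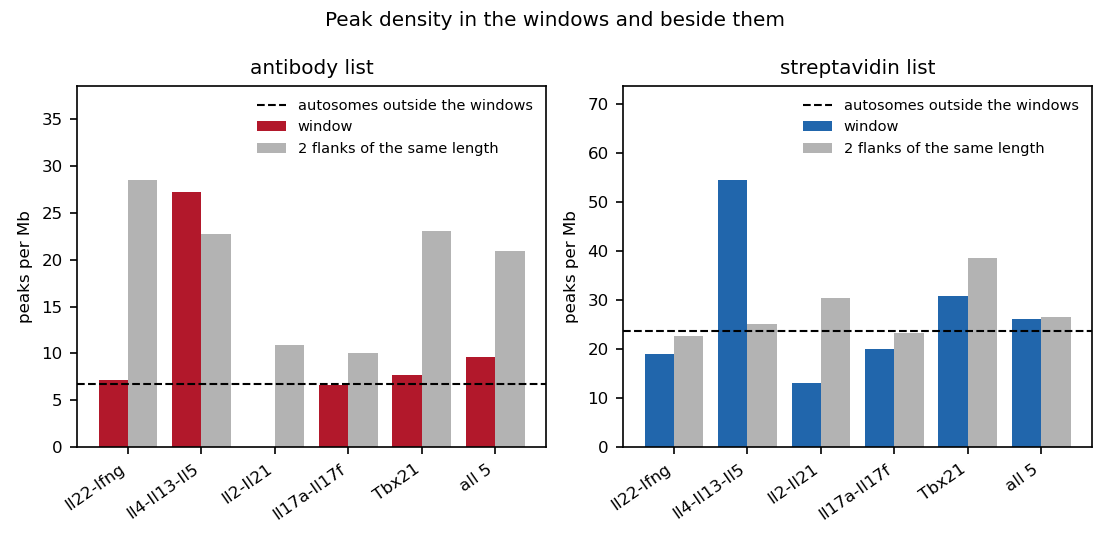
Peaks per Mb in each window (coloured bars) and in its 2 flanks of the same length (grey bars), for the antibody and the streptavidin list, with the autosomes outside the windows as a dashed line. Antibody bars of the windows are below those of the flanks except at Il4-Il13-Il5, where streptavidin peaks also reach 54.5 per Mb.

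The borders of the windows decided a few memberships. Just outside the lower end of the Il22-Ifng window, 1.07 kb away, was an antibody peak with a score of 99.55, and just inside it, 5.95 kb from the border, a streptavidin peak scored 73.34. An antibody peak scoring 115.59 lay 8.51 kb above the Il4-Il13-Il5 window, and a streptavidin peak scoring 53.1 lay 2.17 kb below the Il2-Il21 window. None of these 4 peaks overlapped a peak of the other list. Windows 50 kb longer on each side held 20 antibody peaks, of which 35% were shared (15.4 to 59.2, an interval that includes the 21.9% of the whole list). Windows 20 kb shorter on each side held 8 antibody peaks and 5 joint intervals. Of these 8 peaks 62.5% were shared (24.5 to 91.5, an interval above the 21.9% of the whole list). The single antibody peaks of the Il17a-Il17f and Tbx21 windows, 9.38 and 18.3 kb from the upper border, then dropped out, as did the third shared region of the Il4-Il13-Il5 window, 16.6 kb from it.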

How the data were processed

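Foxo1 ChIP-seq peaks of mouse nTreg cells were analysed as deposited by the authors. The submitters' processing notes name the build mm9 and the tools MACS 1.4, Bowtie 0.12.7 and CASAVA 1.4; roles, settings, the control library and any pooling are not given in the sources used here. The deposited antibody and streptavidin lists give 1 score per peak, defined by no header, and carry a false discovery rate of 0.01 in their names. The joint list, attached to the antibody input sample, has positions only. A peak belonged to a window if its centre lay in it. Overlap meant at least 1 shared base. Exact Clopper-Pearson intervals, and conditional binomial intervals for density ratios, took 95% confidence. Tiles of each window's length were laid over 19 autosomes, whose length was taken between the outermost peaks of the 3 lists. Computation used Python 3.11.15, NumPy 2.4.6, pandas 2.3.3 and SciPy 1.17.1, and overlaps were checked against bedtools and tested on simulated data. With 1 library per group no test was run and no p-value is given. All antibody peaks, all joint intervals, the shared streptavidin peaks and the 3 highest-scoring streptavidin peaks of each window were to be named; the few others named were chosen after their values were seen. The members and lists were chosen with earlier results of these data known. Input libraries were not analysed here. Gene order and promoters come from RefSeq, GRCm38.p6. Positions count from 1.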

Additional observations from a re-analysis of the deposited data

How the results depend on the processing

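Of 73 alternatives to the counts, shares and densities, 67 left the value within its counting interval or, for counts, within 1.5 times. With so few peaks these intervals are wide, so staying within them shows little about stability. Without the Il4-Il13-Il5 window the antibody density ratio of 1.41 became 0.794 and the streptavidin ratio of 1.1 became 0.815. Both fell below 1 yet are among the 67. The 11 antibody peaks became 20 with windows 50 kb longer on each side and 7 in the higher-scoring 50% of the list. The 30 streptavidin peaks became 9 at scores of at least 100 and 16 in the higher-scoring 50%, where fewer peaks were counted by construction. The antibody density ratio of 1.41 became 0.458 when the flanks replaced the autosomes, and the streptavidin ratio of 1.1 became 1.81 at scores of at least 100; the cause was not tested. The promoter search, added to with 8 forms of the consensus, gave 2 genes in place of 0. The share of antibody peaks that were shared ran from 27.3 to 63.6% over its alternatives and that of streptavidin peaks from 13.6 to 33.3%. No paired analysis was possible because each group has 1 library, and for the same reason no replicate could be left out. Depth is unknown, so a peak just under the authors' threshold cannot be told from no signal.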

Other observations

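The highest unshared streptavidin peaks of the Il22-Ifng and the Il17a-Il17f windows had exactly the same score, 114.07, which 14 peaks of the whole list take. Scores of this list therefore come in steps, and ranks of window peaks with such scores are tied.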
